A study of Mus musculus with 6 samples.

Results

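The collagen chain genes are the mouse genes whose symbol is Col, a type number, the letter a and a chain number. The deposited table of 35688 gene rows held 44 of them, each on a single row, and the rule for members reads the name alone. They were measured by sequencing of poly(A)-selected RNA from cultured mouse ovarian surface epithelial (mOSE) cells of the line m1102, which stem from the cell layer that covers the ovary. All 6 libraries came from this line, grown in minimum essential medium with 4% FBS, ITSS and EGF. The control group was 3 untreated libraries, and the other was 3 libraries of cells given TGFB1 at 10 ng/mL for 4 days before RNA extraction. One line stands for the tissue here, and the labels do not say whether the libraries of a group came from separate cultures, so p-values measure the spread between these libraries, which may be technical.

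Collagens are secreted or membrane proteins in which 3 chains wind into a triple helix. The chains of a type assemble in set combinations, so the supply of each partner chain matters as well as the total. Fibrillar collagens form the fibrils of connective tissue, type IV forms the network of basement membranes, FACIT collagens sit on the surface of fibrils, type VI forms beaded filaments and transmembrane collagens are anchored in the plasma membrane. The ovarian surface epithelium lies on a basement membrane over a collagen-rich layer, the tunica albuginea, both of which are opened at ovulation. TGFB1 is known as an inducer of fibrillar collagen synthesis.

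Values are abundances on the TPM scale, which corrects for transcript length and library size, so that levels of different genes can be compared. How many reads each library holds is unknown. A gene was tested if its mean over the 6 libraries was at least 1 TPM, which kept 20 of the 44 collagens. It is called higher or lower where limma's adjusted p, over all 12257 tested rows, was under 0.05. Fold changes are of TPM + 1 on the log2 scale, so a low gene's change is understated.

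Of the 20 tested collagens, 9 were called higher with TGFB1, 1 was called lower and 10 were not called. Among all tested genes 15.8% were called higher and 14.6% lower. The median log2 fold change was 0.31 over the tested collagens and 0.02 over all tested genes. Col4a4 passed the abundance filter through the treated libraries alone, and without it 8 of 19 were higher. All TGFB1 libraries lay above all untreated ones for 11 of the 20 and below them for 2, against 26.3% and 23.6% of all tested genes. By type, 3 of 8 tested fibrillar, 4 of 6 basement membrane and 1 of 3 FACIT collagens rose, where the basement membrane count includes Col4a4. The multiplexin Col18a1 rose too, and the beaded-filament gene Col6a1 was the one that fell. Leaving out a library gave between 7 and 10 higher and between 1 and 3 lower.

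**Figure D1:**
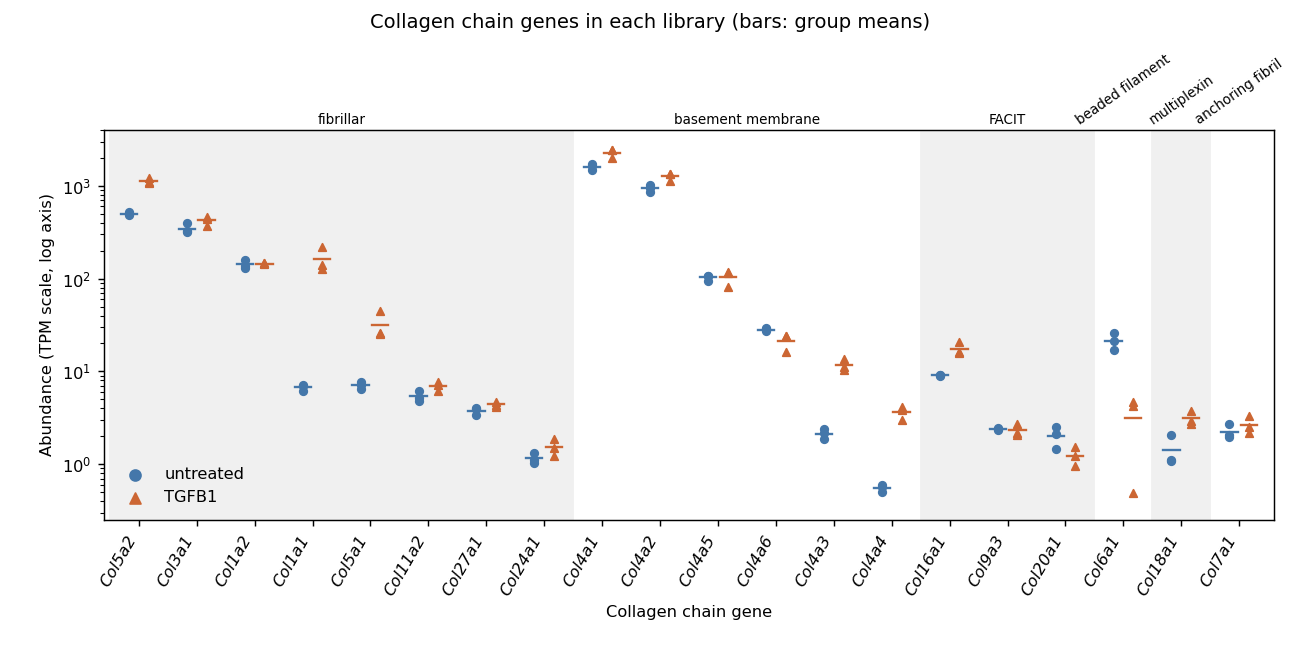
Abundance on the TPM scale (y axis, log) of the 20 tested collagen genes (x axis), by collagen type and then by mean level; each point is a library, circles untreated and triangles TGFB1, and each bar is a group mean. Col1a1 goes from between 6.16 and 7.15 TPM to between 126 and 218 TPM, while the Col1a2 points of the groups lie together.

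The summed abundance of the 44 genes was 3561, 3937 and 3729 TPM in the untreated libraries. It was 5266.5, 5837 and 5796 TPM with TGFB1, and the mean was 1.51 times as high (3742 ± 189 and 5633 ± 318 TPM, where ± is the SD over 3 libraries, as in all values below unless named an SE). Every treated sum lay above every untreated one. This was 0.352% to 0.391% of the column total without TGFB1 and 0.534% to 0.592% with it. Col4a1, Col4a2, Col5a2 and Col3a1 together made up 89.1% to 91.6% of the sum in every library. The 6 basement membrane genes held 71.7 ± 2.16% of it without and 65.5 ± 3.88% with TGFB1, and the fibrillar genes 27.1 ± 2.02% and 33.9 ± 3.83%. In both shares TGFB1 replicate 1 was the furthest from the untreated libraries.

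**Figure D2:**
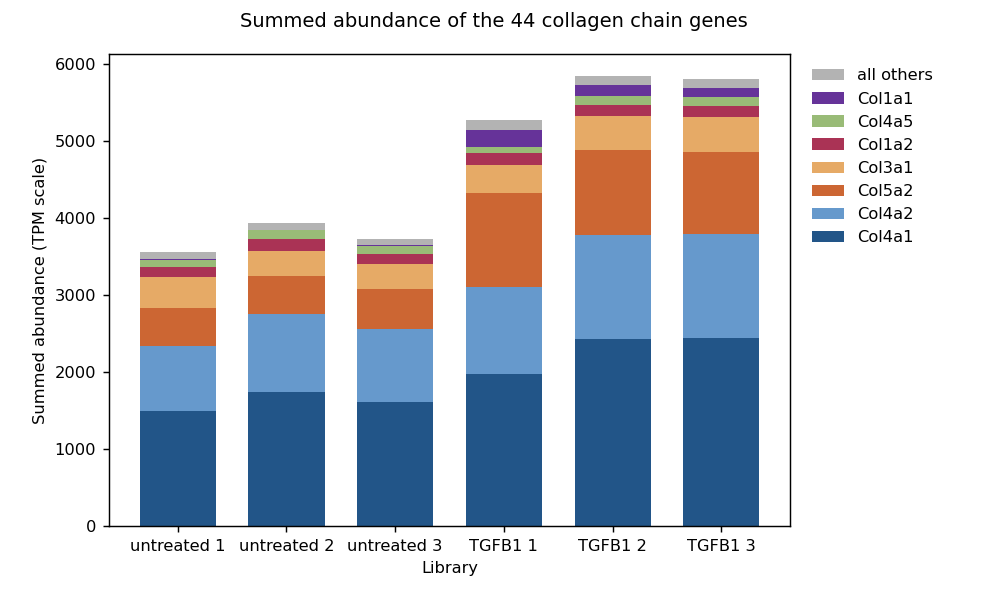
Summed abundance (y axis, TPM scale, from 0) of all 44 collagen chain genes in each library (x axis), split into the most abundant genes and the rest. The columns rise from between 3561 and 3937 to between 5266.5 and 5837, with Col4a1 at the base of each and Col5a2 gaining the most among the fibrillar genes.

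Type I collagen, the main fibril protein of skin, bone and tendon, is usually built from a pair of chains encoded by Col1a1 and a single chain encoded by Col1a2. Col1a1 rose and Col1a2 was not called. Col1a1 (chromosome 11, 94936224 to 94953042, plus strand, GRCm38) was at 6.16, 6.90 and 7.15 TPM in the untreated libraries and at 218, 139 and 126 TPM in the treated ones. The mean was 23.9 times as high with TGFB1 (its log2 fold change was 4.35, SE 0.198, limma adjusted p = 0.00011). Col1a2 (chromosome 6, 4504814 to 4541544, plus strand) was at 137, 159 and 130 TPM without TGFB1 and at 148, 146 and 143 TPM with it. The Col1a2 groups overlapped, and its log2 fold change was 0.04 with a 95% interval from -0.16 to 0.24 (limma adjusted p = 0.744).

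Within each library the Col1a1 to Col1a2 ratio was 0.0450, 0.0433 and 0.0550 in the untreated cells, and 1.48, 0.950 and 0.880 in the treated ones. The ratio was 22.6 times as high with TGFB1, a difference of 4.50 ± 0.256 (SE) on the log2 scale. The untreated cells thus held far more Col1a2 than Col1a1 transcript, and the treated cells held them at similar levels. The exact two-sided permutation test of 3 against 3 libraries gave p = 0.1, the smallest this design can reach. That value also holds for each of the 5 chain ratios compared here, before and after adjustment over them.

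The next fibrillar pair is type V, which joins type I in fibrils and is known for setting where fibrils start and how thick they become. Col5a1 (chromosome 2, 27886425 to 28039514, plus strand) was at 7.20, 6.53 and 7.67 TPM untreated and at 44.2, 25.8 and 25.2 TPM treated. Its mean was 4.45 times as high (its log2 fold change was 1.96, SE 0.211, limma adjusted p = 0.00143). TGFB1 replicate 1 was well above the other treated libraries, and without it the log2 fold change was 1.71. Exons on the opposite strand overlap Col5a1, and 2.18% of its transcripts' 31-mers occur in another gene.

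Col5a2 (chromosome 1, 45374321 to 45503282, minus strand), the partner chain, was far more abundant, at 491, 495 and 518 TPM untreated and 1223, 1096 and 1062 TPM treated. The mean was 2.25 times as high (its log2 fold change was 1.17, SE 0.0665, limma adjusted p = 0.0002). Its groups were far apart for their spread. The Col5a1 to Col5a2 ratio went from between 0.0132 and 0.0148 to between 0.0235 and 0.0362, a difference of 0.94 ± 0.212 (SE) on the log2 scale, with no overlap. Col5a1 thus stayed the scarcer chain in all 6 libraries. Col5a3, a further type V chain, was at 0.151 ± 0.00318 and 0.235 ± 0.0303 TPM and was not tested.

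Type XI collagen, best known from cartilage, is closely related to type V and can replace it in fibrils. Col11a1 was listed at 0.0262, 0 and 0 TPM in the untreated libraries and at 1.56, 0.554 and 0.776 TPM in the treated ones. Its mean over the 6 libraries was 0.486 TPM, under the abundance filter, and its mean with TGFB1 was 0.963 TPM. With no filter it was called higher (log2 fold change 0.93, limma adjusted p = 0.0305). Col11a2 was at 5.20, 6.15 and 4.77 TPM and at 7.73, 6.18 and 7.08 TPM, every treated value above every untreated one, but was not called (log2 fold change 0.33, limma adjusted p = 0.0849).

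Col3a1, whose chain forms the fibrils of elastic tissues, was the second most abundant fibrillar gene. It was at 394, 323 and 316 TPM untreated and at 372, 444 and 456 TPM treated. The groups overlapped through untreated replicate 1 and TGFB1 replicate 1, and Col3a1 was not called (log2 fold change 0.30, 95% interval 0.03 to 0.57, limma adjusted p = 0.0898). It was called higher without TGFB1 replicate 1 (0.39, adjusted p = 0.023) or without control replicate 1 (0.40, adjusted p = 0.0489). Col3a1 and Col5a2 lie tail to tail on chromosome 1 with 24614 bases between them. The remaining fibrillar genes were low. Col27a1, expressed in cartilage, was at 3.90, 4.06 and 3.35 TPM untreated and at 4.71, 4.12 and 4.37 TPM treated, every treated value higher, and was not called (log2 fold change 0.18, limma adjusted p = 0.254). Col24a1 was at 1.02, 1.12 and 1.32 TPM and at 1.23, 1.87 and 1.49 TPM, which overlapped, and was not called either (log2 fold change 0.23, limma adjusted p = 0.315). Col2a1, the cartilage fibril gene, was under 0.18 TPM in every library.

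Upstream sequence is shown for 3 fibrillar genes that behaved differently: Col5a1, called higher; Col11a1, near 0 in the untreated libraries; and Col3a1, not called. Each run is the 250 bases before the gene's RefSeq start (GRCm38.p6), 5′ to 3′ on the gene's strand, with capitals marking matches on either strand to CAGAC, a short motif known to bind SMAD proteins, and to GGGCGG, the GC box known for SP1. The positions are chr2:27886175-27886424, chr3:114030290-114030539 and chr1:45311288-45311537, all plus strand.
Col5a1: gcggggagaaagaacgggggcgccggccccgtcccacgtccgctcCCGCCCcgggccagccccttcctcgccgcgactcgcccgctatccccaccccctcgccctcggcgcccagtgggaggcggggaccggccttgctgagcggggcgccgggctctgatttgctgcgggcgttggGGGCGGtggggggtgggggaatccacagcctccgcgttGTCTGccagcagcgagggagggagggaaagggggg
Col11a1: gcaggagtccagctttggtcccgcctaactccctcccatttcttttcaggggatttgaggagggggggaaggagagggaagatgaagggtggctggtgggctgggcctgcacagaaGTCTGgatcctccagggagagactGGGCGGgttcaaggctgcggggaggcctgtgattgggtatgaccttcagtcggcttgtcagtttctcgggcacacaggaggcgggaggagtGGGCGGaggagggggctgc
Col3a1: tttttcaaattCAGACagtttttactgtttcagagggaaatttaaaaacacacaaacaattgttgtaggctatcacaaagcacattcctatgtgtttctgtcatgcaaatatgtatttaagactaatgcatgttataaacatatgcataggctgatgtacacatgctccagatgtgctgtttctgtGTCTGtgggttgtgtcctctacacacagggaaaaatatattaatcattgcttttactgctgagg

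The Col5a1 and Col11a1 windows are GC-rich, at 76.4% and 62.4%, and each holds 2 GC boxes and 1 CAGAC match. The Col3a1 window is at 35.2% GC and holds 2 CAGAC matches and no GC box. In RefSeq windows of 300 bases, from 250 before to 50 after each start, CAGAC or its reverse complement occurred in 49.6% of 32851 promoters and in 20 of the 38 windows of collagen genes, which cover 35 genes. GGGCGG or its reverse complement occurred in 35.7% of all and in 23 of those 38. The motifs do not overlap each other in the sequences shown. The counts did not follow the calls gene by gene: in the 300-base windows Col1a2, Col11a2 and Col27a1, none of them called, held 2 GC boxes each, as did Col16a1, called higher, while Col4a4, called higher, held 0. A match describes letters in the window and is not a measured binding site.

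**Figure D3:**
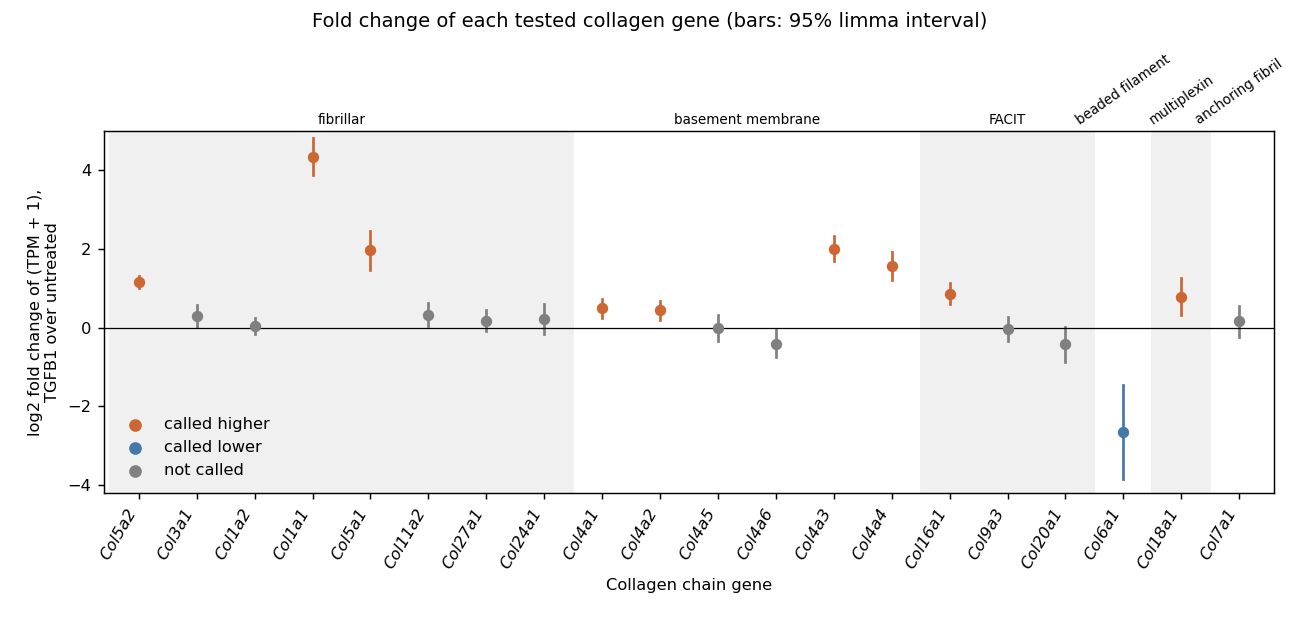
Log2 fold change of TPM + 1, TGFB1 over untreated (y axis), of each tested collagen gene (x axis), with its 95% limma interval as a bar; orange points were called higher, the blue point lower and grey points were not called. Col1a1 stands at 4.35 and Col6a1 at -2.65, and Col1a2 and Col4a5 lie at 0.04 and 0.00.

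Type IV collagen is the network of basement membranes. Its 6 chains are known to form 3 kinds of triple helix: one of Col4a1 and Col4a2 chains that occurs widely, one of Col4a3, Col4a4 and Col4a5 chains, and one of Col4a5 and Col4a6 chains. The genes sit in head-to-head pairs, Col4a1 with Col4a2, Col4a3 with Col4a4 and Col4a5 with Col4a6. The 3 pairs were seen at very different levels and with different changes.

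Col4a1 was the most abundant collagen transcript in every library. It was at 1490.4, 1738 and 1617 TPM untreated and at 1978, 2429 and 2436 TPM treated, and its mean was 1.41 times as high with TGFB1 (its log2 fold change was 0.49, SE 0.0999, limma adjusted p = 0.0121). By mean level it ranked 74 of 35688 rows without and 36 with TGFB1. Col4a2 was at 852, 1015 and 947 TPM and at 1119.6, 1354 and 1352 TPM. Its mean was 1.36 times as high (its log2 fold change was 0.44, SE 0.0989, limma adjusted p = 0.0175). Neither pair of groups overlapped, and TGFB1 replicate 1 was the lowest treated library for both genes.

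The Col4a2 call was lost, at adjusted p from 0.0527 to 0.0591, with control replicate 1, control replicate 3, TGFB1 replicate 2 or TGFB1 replicate 3 left out, and with no abundance filter. The Col4a1 call held in every alternative fit, with adjusted p up to 0.0486. The Col4a1 to Col4a2 ratio lay between 1.71 and 1.75 in untreated and between 1.77 and 1.80 in treated libraries. The groups did not overlap, but the difference was 0.05 ± 0.0139 (SE) on the log2 scale. The pair meets on chromosome 8 at opposite strands, Col4a1 ending its span at 11312826 and Col4a2 starting at 11312805, so that their first exons share 22 bases.

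Col4a3 and Col4a4, whose chains belong to the basement membranes of the kidney glomerulus, lung and inner ear, were much less abundant and rose more. Col4a3 was at 1.85, 2.17 and 2.40 TPM untreated and at 13.7, 11.05 and 10.4 TPM treated. Its mean was 5.47 times as high (its log2 fold change was 2.01, SE 0.131, limma adjusted p = 0.000298). Col4a4 was at 0.504, 0.568 and 0.599 TPM and at 4.10, 3.86 and 2.99 TPM, and its mean was 6.55 times as high (its log2 fold change was 1.57, SE 0.148, limma adjusted p = 0.000912). For both genes every treated library lay well above every untreated one.

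Of the 31-mers of Col4a3 transcripts, 5.08% also occur in another gene, and 563 of its exonic bases are overlapped by C430014B12Rik on the opposite strand. The Col4a3 to Col4a4 ratio lay between 3.68 and 4.00 untreated and between 2.87 and 3.48 treated, a difference of -0.25 ± 0.0913 (SE) on the log2 scale. With 1 TPM added to both genes the sign of that difference turned, to 0.44, so its direction depends on the pseudocount at these levels.

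Between the starts of Col4a3 and Col4a4 lie 71 bases, shown here because both genes that flank them were called higher. The run is chr1:82586850-82586920, read 5′ to 3′ on the minus strand toward Col4a4, from RefSeq on GRCm38.p6. It holds no match on either strand to either motif named above, so it has no capitals, and it is 69.0% GC.
Col4a3-Col4a4 gap: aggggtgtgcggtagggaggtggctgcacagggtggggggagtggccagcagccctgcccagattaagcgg

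Col4a5, the shared partner of the remaining type IV helices, did not follow Col4a3 and Col4a4. It was at 95.2, 107 and 106 TPM untreated and at 81.8, 117 and 114 TPM treated, and the groups overlapped (log2 fold change 0.00, 95% interval -0.33 to 0.34, limma adjusted p = 0.996). Col4a6 was at 27.3, 28.3 and 29.1 TPM and at 16.3, 24.2 and 23.8 TPM. All treated Col4a6 values were below the untreated ones, yet it was not called (log2 fold change -0.40, limma adjusted p = 0.0809). Without TGFB1 replicate 1, its lowest library, it was called lower (-0.23, adjusted p = 0.0342). The Col4a5 to Col4a6 ratio went from between 3.49 and 3.79 to between 4.77 and 5.01, with no overlap, a difference of 0.42 ± 0.0404 (SE) on the log2 scale. Their starts on the X chromosome are 1308 bases apart.

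**Figure D4:**
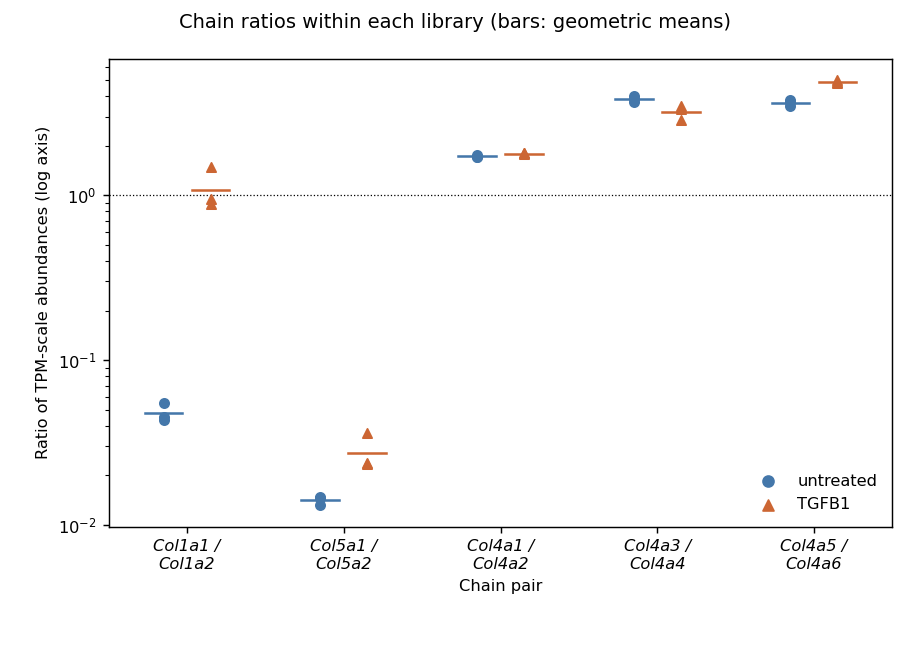
Ratio of TPM-scale abundances (y axis, log) for 5 pairs of chains of the same collagen type (x axis) in each library; circles are untreated, triangles TGFB1, bars are geometric means and the dotted line marks equal levels. Col1a1 to Col1a2 moves from between 0.0433 and 0.0550 to between 0.880 and 1.48, while Col4a1 to Col4a2 stays between 1.71 and 1.80.

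Type VI collagen makes beaded filaments near cell surfaces from chains of Col6a1, Col6a2 and a larger chain such as that of Col6a3. Col6a1 (chromosome 10, 76708792 to 76726168, minus strand) was at 26.2, 21.3 and 17.1 TPM untreated and at 0.488, 4.66 and 4.27 TPM treated. The untreated mean was 6.86 times the treated one (log2 fold change -2.65, SE 0.500, limma adjusted p = 0.00946). The treated libraries differed from each other, with replicate 1 the lowest by far, and without it the log2 fold change was -2.02 (adjusted p = 0.000284). The groups did not overlap.

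Col6a2 lies 85161 bases from Col6a1 on the same strand. It was at 2.43, 1.68 and 1.35 TPM and at 0.0401, 0.146 and 0.2998 TPM, again with TGFB1 replicate 1 lowest. Its mean over all libraries was just under the filter. With no filter it was called lower (log2 fold change -1.27, limma adjusted p = 0.00996). It was also tested and called lower without TGFB1 replicate 1 (-1.19), replicate 2 (-1.26) or replicate 3 (-1.35). In those fits it passed the filter only because a treated library, where it was low, was left out. They are therefore not separate support for the fall. Col6a3 was at 0.0213 TPM or less in every library and Col6a6 at 0.0218 TPM or less, and Col6a4 and Col6a5 were at 0 in all 6. Transcripts for that larger chain were near 0 in both groups.

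The end of the Col6a1 upstream window is shown as that of the one tested gene that fell. The 126 bases at chr10:76726169-76726294, minus strand, end where the outermost GENCODE start of the gene begins, 124 bases before the RefSeq start. They hold no match to either motif and have no capitals.
Col6a1: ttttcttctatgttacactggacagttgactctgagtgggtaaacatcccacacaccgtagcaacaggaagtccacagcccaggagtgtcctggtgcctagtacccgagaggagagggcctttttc

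Among the FACIT collagens Col16a1, whose chain links fibrils and other matrix and is made by many mesenchymal cells, rose. It was at 8.97, 9.25 and 9.21 TPM untreated and at 20.95, 15.9 and 16.1 TPM treated, so that its mean was 1.93 times as high (its log2 fold change was 0.87, SE 0.115, limma adjusted p = 0.00279). The untreated libraries were nearly equal and all treated ones were well above them. Col9a3, a cartilage FACIT chain, was at 2.48, 2.37 and 2.33 TPM untreated and at 2.07, 2.72 and 2.15 TPM treated (log2 fold change -0.04, limma adjusted p = 0.839). Col20a1 was at 1.47, 2.49 and 2.09 TPM and at 0.948, 1.23 and 1.54 TPM (log2 fold change -0.42, limma adjusted p = 0.128). Both overlapped between the groups and neither was called. Of the exonic bases of Col9a3, 234 are overlapped by Tcfl5 on the opposite strand. The other 6 FACIT genes were not tested. Col12a1, found on fibrils of tendon and ligament, was at 0.0607 ± 0.0238 and 0.135 ± 0.0524 TPM and the related Col14a1 at 0.0646 ± 0.0345 and 0.0815 ± 0.0186 TPM. Col9a1 was at 0 in all libraries and Col9a2, Col19a1 and Col22a1 were at 0.0223 TPM or less.

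Col18a1, a basement membrane multiplexin whose end fragment is endostatin, was at 1.09, 2.06 and 1.10 TPM untreated and at 2.95, 3.77 and 2.71 TPM treated. The groups did not overlap and the mean was 2.22 times as high (its log2 fold change was 0.79, SE 0.196, limma adjusted p = 0.0244). The call was lost with no filter and when TGFB1 replicate 2, control replicate 1 or control replicate 3 was left out (adjusted p from 0.0598 to 0.0844). Col15a1, the related multiplexin, was at 0.545 ± 0.218 and 0.734 ± 0.343 TPM and was not tested. Col7a1, which forms the anchoring fibrils under stratified epithelia, overlapped between the groups, at 2.05, 1.95 and 2.74 TPM untreated and 3.28, 2.53 and 2.17 TPM treated (log2 fold change 0.17, limma adjusted p = 0.473).

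No transmembrane collagen reached the filter. Col23a1 was at 0.0343, 0.0196 and 0.166 TPM untreated and at 0.270, 0.363 and 0.165 TPM treated. Col25a1, known from neurons, was at 0.178 TPM or less, Col13a1 at 0.0465 TPM or less, and Col17a1, a hemidesmosome component of skin epithelium, at 0.0338 TPM or less in every library. The hexagonal network genes Col8a1, Col8a2 and Col10a1 were at 0.0716 TPM or less. Col28a1 was at 0.525, 0.677 and 0.582 TPM and at 0.0885, 0.409 and 0.305 TPM, all treated values lower, and Col26a1 was at 0.912 ± 0.226 and 0.462 ± 0.446 TPM. In all, 24 members were not tested, 17 of them with a mean under 0.1 TPM and 3 at 0 in every library.

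TGFB1 replicate 1 was the treated library furthest from the untreated mean for 7 of the 10 called collagens. For Col4a1, Col4a2 and Col18a1 another treated library was furthest. The listed markers of ovarian surface epithelium and mesothelium, 12 genes, summed to between 1952 and 2103 TPM untreated and between 1038 and 1414 TPM treated, with Upk3b and Msln present in all libraries and Lhx9 near 0. Of the 9 tested, 5 fell (Upk3b, Gpm6a, Krt7, Krt18 and Bnc1) and Cdh2 rose (log2 fold change 0.38, limma adjusted p = 0.00888). Among all tested genes 14.6% were called lower and 15.8% higher. Wt1 and Msln were lower in every treated library but were not called. Krt19, not tested, was lower in every treated library, with means of 1.65 TPM untreated and 0.246 TPM treated. Krt8, not tested either, was higher in every treated library at 0.414 TPM or less. The 6 fibroblast markers, taken with the collagens because fibroblasts make much collagen, summed to between 1546 and 1757 TPM untreated and between 697 and 731 TPM treated. Nearly all of that was Dcn and Thy1, which both fell, and Lum and Dpt were under 0.52 TPM in every library. Pdgfra was at 4.82, 7.28 and 6.93 TPM untreated and at 7.41, 7.52 and 8.02 TPM treated. Every treated Pdgfra value was higher, yet it was not called (log2 fold change 0.25, limma adjusted p = 0.233). Pdgfrb was under 0.02 TPM untreated and at 1.05, 0.199 and 0.191 TPM treated. The smooth muscle and pericyte markers, 5 genes, summed to between 1359 and 1748 TPM and between 1668 and 2131 TPM, nearly all Acta2, which was not called, with Myh11 and Rgs5 near 0. In that list Cnn1 rose from 1.26 to 5.90 TPM in the mean (limma adjusted p = 0.0182), and Des, at means of 0.840 and 2.18 TPM, had every treated library above the untreated ones but was not called. The leukocyte list summed to between 26.5 and 36.7 TPM untreated and between 15.5 and 16.7 TPM treated, nearly all Cd68 and Cd14, with Ptprc under 0.09 TPM. The endothelial list summed to between 1.07 and 1.27 TPM untreated and between 1.74 and 2.30 TPM treated, with no overlap and with Kdr near 0. Fshr of granulosa and Lhcgr of theca and luteal cells were at 0. The granulosa list summed to between 33.8 and 37.9 TPM and between 30.9 and 34.1 TPM, through Foxl2, which rose (log2 fold change 0.28, limma adjusted p = 0.0265), and Inha, which fell (-0.75, adjusted p = 0.0152). The theca and luteal list summed to between 279 and 326 TPM untreated and between 79.8 and 182 TPM treated, nearly all Star, which fell (-1.15, adjusted p = 0.0279). The calls of Upk3b, Bnc1, Cnn1, Foxl2, Inha and Star were each lost with at least 1 of the control libraries left out. In bulk RNA fewer cells of a type and less RNA per cell cannot be told apart, and the part of these marker changes in the collagen values was not tested.

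The genes that make and handle collagen were counted in 5 lists, to be read against the 15.8% of all tested genes called higher, the 14.6% called lower and their median log2 fold change of 0.02. Of 17 tested genes for folding, modifying and exporting procollagen, 12 rose and 0 fell (median log2 fold change 0.44). The largest rises were those of P3h1, a prolyl 3-hydroxylase (1.05), Fkbp10, a chaperone of procollagen folding (0.87), Plod1, a lysyl hydroxylase (0.79), and Sec23a, a coat protein of vesicles that leave the endoplasmic reticulum (0.79). P4ha1, the catalytic subunit of the main prolyl 4-hydroxylase, was at 222 ± 14.7 and 236 ± 8.65 TPM and was not called (limma adjusted p = 0.347). Of the other members, Serpinh1, the collagen chaperone HSP47, rose from 1099 ± 41.3 to 1649 ± 191 TPM. Plod3 was called higher (log2 fold change 0.41, limma adjusted p = 0.0319). Its call was lost with no filter, with any control library or TGFB1 replicate 2 left out, and with a replicate block (adjusted p from 0.0517 to 0.0996). Sec24d was not called (0.33, adjusted p = 0.0535). It was called higher without TGFB1 replicate 1 or 3 and with abundant-gene rescaling.

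Of 8 tested genes for propeptide removal and crosslinking, 4 rose and 2 fell (median 0.42). The lysyl oxidase genes Lox (log2 fold change 2.95) and Loxl1 (0.83) and the C-propeptide protease gene Bmp1 (1.46) rose, and Pcolce, which enhances that protease, fell (-0.92). Adamts3, an N-propeptidase gene, fell as well, from 3.87 ± 0.409 to 1.78 ± 0.284 TPM. Of 5 tested collagen receptor genes 2 rose and 1 fell (median 0.31). They were Adgrg1, a receptor for type III collagen, from 8.77 ± 0.969 to 37.2 ± 2.52 TPM; Itgb1, the shared beta chain of collagen-binding integrins, from 472 ± 29.0 to 988 ± 96.9 TPM; and Ddr2, a fibrillar collagen receptor kinase, which fell from 57.6 ± 3.16 to 44.1 ± 0.428 TPM. The integrin alpha chains that bind collagen, Itga1, Itga2, Itga10 and Itga11, had group means under 1 TPM and were not tested.

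Of 7 tested collagen-degrading proteases and their inhibitors 4 rose and 1 fell (median 0.45). The gelatinase gene Mmp2 (log2 fold change 1.99) and the membrane protease genes Mmp14 (1.31) and Mmp16 (0.72) rose, as did the inhibitor gene Timp3. The one tested gene called lower, Timp2 (-0.62), also encodes an inhibitor. Mmp13, under the filter and not tested, was lower in every treated library. It was at 0.754, 1.51 and 1.55 TPM untreated and at 0.0360, 0.418 and 0.4197 TPM treated. Mmp9, not tested either, was higher in every treated library. It was at 0.0209, 0.286 and 0.0597 TPM untreated and at 1.15, 0.5498 and 0.3996 TPM treated. The Timp2 call was lost with no filter and without control replicate 2 or 3. The Timp3 call was lost with any library but TGFB1 replicate 1 left out (adjusted p from 0.0516 to 0.0632), and without that replicate Mmp15 was called higher too. Of 5 tested fibril-binding matrix genes 3 rose and 2 fell (median 0.53). Bgn, a small proteoglycan (0.82), and Fn1, fibronectin (0.76), rose, while Dcn, decorin, a proteoglycan that coats fibrils (-1.14), and Aebp1, a collagen-binding protein (-1.30), fell.

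**Figure D5:**
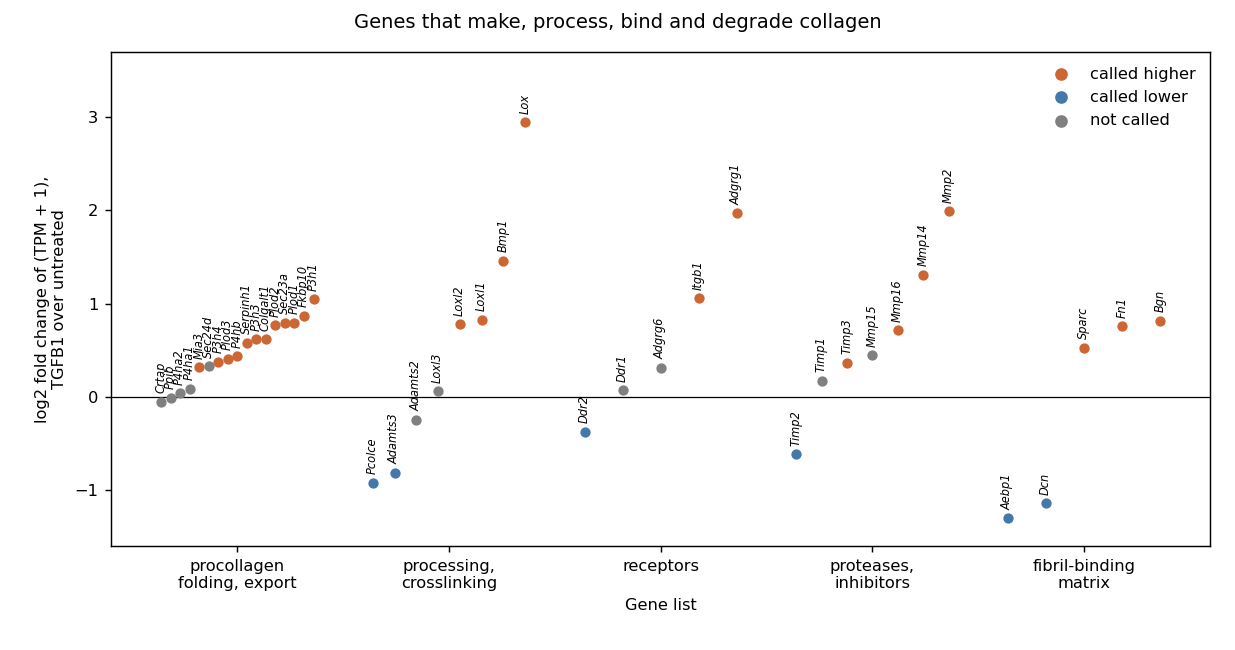
Log2 fold change of TPM + 1, TGFB1 over untreated (y axis), of each tested gene in 5 lists of collagen handling (x axis, ordered within a list by fold change); orange was called higher, blue lower and grey not called. The 12 called genes of the first list lie between 0.32 and 1.05, and Lox is the highest point at 2.95.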

How the data were processed

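Poly(A)-selected RNA of 6 libraries was prepared with a strand-marking kit, per the labels' protocols. Per the submitters' processing notes, the tools were kallisto 0.44.0 with sleuth 0.30.0 and the build was GRCm38. The annotation and strand setting are not given in the sources at hand. The values are a TPM-scale signal deposited by the authors, with column totals from 983434 to 1026702, so they are not plain TPM.

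Values were fitted as log2(TPM + 1) with limma 3.58.1 in R 4.3.3 (eBayes with trend, two-sided, Benjamini-Hochberg over 12257 rows with a mean of at least 1). Chain ratios, without pseudocount, were compared by exact permutation in SciPy 1.17.1. Coordinates are from GENCODE M21, promoter windows from RefSeq on GRCm38.p6. Of the 44 symbols, 35 matched a promoter window. Shared 31-mers were counted over GENCODE transcripts. The fit was run on simulated data with independent errors and with changes set only in the more abundant genes. That run does not cover the low collagens or libraries that are technical replicates. The members and gene lists were chosen with earlier results of these data known. By the rule for named genes, every tested collagen and up to 4 called genes per list with the largest change are named. Serpinh1, P4ha1, Plod3, Sec24d, Adamts3, Mmp9, Mmp13, Mmp15, Timp3 and the integrin alpha chains were added after their values were seen. Of the procollagen folding list 1 of 21 symbols had no row. Alternatives changed the pseudocount, filter, scaling, libraries and replicate block.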

Additional observations from a re-analysis of the deposited data

How the results depend on the processing

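The 9 higher and 1 lower collagen calls were the same in number with pseudocounts of 0.1 and 5, with median-of-ratios, quantile and abundant-gene rescaling, and with a replicate block. With no filter 41 collagens were tested, 8 higher and 2 lower, and with a filter of 5 TPM 13 were tested, 7 higher and 1 lower. Leaving out a library gave 7 to 10 higher and 1 to 3 lower. The 3 lower without TGFB1 replicate 1 were Col6a1, Col6a2 and Col4a6, of which Col6a2 passed the filter only with a treated library left out. Calls of 8 of the 10 called collagens held in every alternative that tested them; Col4a2 and Col18a1 lost theirs in some, and Col3a1 and Col4a6, not called, gained one in some. The Col4a3 to Col4a4 difference reversed to 0.44 with a pseudocount of 1. Leaving out a library, the summed collagen ratio ran from 1.47 to 1.55, and the Col1a1 to Col1a2 difference from 4.27 to 4.64. Of the lists, crosslinking genes called lower were 1 with a filter of 5 TPM, and degradation genes called lower were 0 with no filter and 0 to 1 with a library left out, while 3 to 5 were called higher with a library left out.

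Replicate numbers are shared by the groups, but same-numbered libraries did not all deviate together (r = 0.20, 0.15 and -0.04), so the numbers were not taken as pairs. With the replicate block 11 procollagen folding genes rose in place of 12. The chain ratio differences are the same by construction when libraries are paired by number, so this is no check of them. Their exact p was then 0.25, the smallest 3 pairs can give. Depth is unknown, so the precision of low genes cannot be computed.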
